A study of Mus musculus with 13 samples.

Results

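The nuclear genes of oxidative phosphorylation were described in thymocytes and in the other immune cells of 2 split-pool single-cell libraries, Parse WT and Parse Mini. They were taken as every gene in both gene lists whose symbol starts with Ndufa, Ndufb, Ndufc, Ndufs, Ndufv, Sdha, Sdhb, Sdhc, Sdhd, Uqcr, Cox4i, Cox5, Cox6, Cox7, Cox8 or Atp5, without pseudogene symbols. This gave 104 of 57010 genes, with 103 symbols, since Atp5o is listed under 2 identifiers. The symbol prefixes also bring in 12 assembly factors, 10 tissue isoforms or relatives of complex IV subunits and 4 copies of complex I subunit genes. A unique molecular identifier (UMI), the tag that marks one captured RNA molecule, was seen for 102 of the genes in Parse WT and 98 in Parse Mini. The 104 genes held 1334080 UMIs in Parse WT and 240346 in Parse Mini.

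Oxidative phosphorylation is the step in which mitochondria turn the energy of NADH and succinate into ATP. Complexes I and II feed electrons into the chain, complex III passes them to cytochrome c, complex IV gives them to oxygen, and complex V (ATP synthase) uses the proton gradient to make ATP. Most subunits are encoded in the nucleus and imported, and complex II is wholly nuclear, whereas complexes I, III, IV and V each also need subunits made inside mitochondria from mitochondrial DNA. In the thymus, double-negative (DN) cells become CD4+CD8+ double-positive cells that first divide (DP-P), then rest while rearranging the TCR alpha locus (DP-R), undergo selection (DP-S) and leave as single-positive cells (SP-CD4, SP-CD8).

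The 4 thymic samples of Parse WT, here samples 1 to 4, came from the separated thymic lobes of 2 female C57BL/6N mice, 2 months old. The 4 samples of Parse Mini, labelled thymus and control, came in the same way from 2 young female C57BL/6N mice of a later experiment. For 16 further Parse WT samples the labels name thymus and spleen, control and chronic stress without saying which sample is which, so these are given as ranges and medians only, with no test. The paper calls these 16 samples non-thymic. Their names in the cell table include the prefixes CVS_C, CVS_S and YD_C, which were not used as groups. The labels name no genetic alteration, and the cells were fixed before barcoding. Lobes of one mouse are not separate animals, so the p-values measure only the spread between the 4 samples of a kit.

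After quality control 39369 thymic cells remained in Parse WT (3964 to 14186 per sample) and 19273 in Parse Mini (4280 to 5222), with 17.4 to 66.2 M and 17.5 to 19.0 M UMIs outside ribosomal RNA per sample. Between 40393 and 166504 of these belonged to the oxidative phosphorylation genes in a Parse WT sample and between 40462 and 45708 in a Parse Mini sample. Cells were clustered without these 104 genes and clusters were named from marker lists, so the classes rest on other genes of the same cells and carry the ending "-like". In Parse WT, 6946 cells (17.6%) and in Parse Mini 5326 (27.6%) stayed unnamed. Clusters were named by such markers, so their levels describe the classes and do not test them: Rag1 of the recombinase had its highest median in DP-R-like cells (1510 and 1970 counts-per-million, CPM), Mki67, a proliferation marker, in DP-P-like cells (1580 and 1690 CPM), and Il2ra in DN-like cells (591 and 1090 CPM). Defining markers of red cells, neutrophils and macrophages (Hba-a1, S100a8 and C1qa) did not pass 2.71 CPM in any thymocyte class and sample, and the B cell marker Cd79a did not pass 8.97 CPM. These are single genes picked from longer lists. The erythroid list as a whole summed higher in DP-P-like than in DP-R-like cells of Parse WT, as given below. One Parse WT cluster of 614 DP-R-like cells came wholly from sample 1. Of 103602 barcode combinations in Parse WT, 19867 (19.2%) occurred in more than 1 of the 9 sublibraries, and 3012 combinations were shared between the kits.

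Promoter sequences of 4 of the genes are shown because the genes they belong to carry the pattern described below: Cox6a1 (a complex IV subunit), Atp5k (a membrane subunit of ATP synthase) and Ndufaf4 (a complex I assembly factor) were higher in dividing cells, and Ndufs4 (a complex I accessory subunit) was lower. The first 3 were picked among the higher genes because they hold the NRF1 letters, which the promoters of Cox8a and Cox5a do not. Each run is the 250 bases before the RefSeq transcription start on mm10 (GRCm38.p6), written on the strand of the gene. Capitals mark matches, on either strand, to the letters GCATGCGC (the core of the NRF1 motif), CCGGAAG (ETS), AAGATGGC (YY1), GGGCGG (Sp1) or TCAAGGTCA (ERR). The 4 windows lie at chr5:115348959-115349208 (minus strand), chr5:108434400-108434649 (minus), chr4:24897833-24898082 (plus) and chr13:114388095-114388344 (minus), in that order.
Cox6a1: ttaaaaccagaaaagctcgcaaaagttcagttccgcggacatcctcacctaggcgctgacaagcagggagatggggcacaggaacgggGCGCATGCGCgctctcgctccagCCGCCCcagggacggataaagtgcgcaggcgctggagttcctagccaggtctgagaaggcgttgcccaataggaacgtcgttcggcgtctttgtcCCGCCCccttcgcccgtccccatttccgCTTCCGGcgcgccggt
Atp5k: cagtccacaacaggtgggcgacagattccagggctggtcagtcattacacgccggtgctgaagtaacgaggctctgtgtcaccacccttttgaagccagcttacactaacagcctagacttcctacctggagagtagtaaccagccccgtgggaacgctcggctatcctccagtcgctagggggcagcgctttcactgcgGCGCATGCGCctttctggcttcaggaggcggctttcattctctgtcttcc
Ndufaf4: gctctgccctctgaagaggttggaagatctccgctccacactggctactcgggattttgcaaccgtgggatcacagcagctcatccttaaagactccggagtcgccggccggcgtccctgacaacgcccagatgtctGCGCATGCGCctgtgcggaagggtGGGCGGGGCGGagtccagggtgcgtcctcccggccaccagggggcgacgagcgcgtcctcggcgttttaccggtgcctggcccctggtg
Ndufs4: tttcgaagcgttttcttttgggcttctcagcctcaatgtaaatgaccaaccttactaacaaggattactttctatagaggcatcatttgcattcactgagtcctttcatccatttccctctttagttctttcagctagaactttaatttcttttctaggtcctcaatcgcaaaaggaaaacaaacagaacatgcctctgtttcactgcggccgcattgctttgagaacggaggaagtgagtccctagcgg
In the first 3 sequences the NRF1 letters are present on both strands of the same overlapping stretch. None of the 5 motifs was found in the bases shown for Ndufs4. Its only match, to the YY1 letters, lay in the 50 bases after the start.

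Over windows of 250 bases before to 50 after the start, 86 promoters of 81 member symbols were compared with all 32851 promoters in the table. The NRF1 letters stood in 12 member promoters (14.0%, against 2.7% of all promoters), the ETS letters in 22 (25.6% against 8.9%), the YY1 letters in 11 (12.8% against 2.7%), the Sp1 letters in 40 (46.5% against 35.7%) and the ERR letters in 2 (2.3% against 0.4%). A match is a description of the letters and not a measured binding site. Of the member genes higher in dividing cells, 6 of 38 with a promoter in the table held the NRF1 letters, as did 6 of 36 that were not called. The ETS letters stood in 12 of the 38 and 8 of the 36, and the YY1 letters in 3 of the 38 and 7 of the 36. Of the 4 lower members with a promoter, none held the NRF1 letters and 2 held the ETS letters.

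Some members gave far more UMIs than others. Ndufs4 led in both kits, with 230 CPM over all thymic cells in Parse WT and 256 in Parse Mini, and it gave 6.94% of the member UMIs of all Parse WT cells, the 16 other samples included, and 10.4% of those of Parse Mini, which is thymus only. It was followed in Parse WT by the ATP synthase F1 subunits Atp5b (125 CPM), Atp5a1 (114) and Atp5c1 (111), then Sdha (73.9), the flavoprotein of complex II, and the complex III core subunit Uqcrc2 (72.0), Ndufs1 (67.1), an iron-sulphur core subunit of complex I, Atp5pb (66.8), Atp5h (65.4) and the supercomplex factor Cox7a2l (65.1). Ndufs4 spans 100464 bases, of which 2708 are exonic, and the tables do not separate exonic from intronic UMIs, so these CPM do not rank the genes by RNA level.

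Not every UMI can be tied to one gene. Of the 104 genes, 19 shared at least 10% of their 50-base stretches with another gene, among them Atp5g2 (38.3%), Atp5h (19.9%), Ndufs3 (16.1%) and Cox7a2l (13.8%). The second identifier of Atp5o, a readthrough, shared 89.8%. A further limit is overlap: 14 genes overlapped another gene on the same strand, among them Atp5b with 3 such genes and Atp5g2, Cox4i1 and Ndufc2 with 1 each. Values of these genes are uncertain to that extent.

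The dividing, DP-P-like cells held the highest mean level of these transcripts among the 6 thymocyte classes of both kits. This class was named from cell cycle markers, with no requirement for Cd4 or Cd8a. It may therefore include dividing cells that are not double-positive. The summed level of the 104 genes, in counts-per-million (CPM) of the UMIs outside ribosomal RNA, was 2254, 2825, 2536 and 2410 in DP-R-like cells of Parse WT samples 1 to 4, and 2497, 3166, 2808 and 2663 in their DP-P-like cells. In Parse Mini the values were 2292, 2266, 2220 and 2342 against 2379, 2452, 2356 and 2581. DP-P-like cells were above DP-R-like cells of the same sample in 4 of 4 samples of each kit, by 11% ± 0.707 (SD, n = 4 samples) and 7.08% ± 2.75, while the Parse WT ranges overlapped between samples because sample 2 was high and sample 1 low in every class. The excess was present in 9 of 9 Parse WT sublibraries (8.44% to 14.4%), 2 of 2 Parse Mini sublibraries (6.36% to 6.85%), 8 of 8 first-round wells of Parse WT (7.91% to 13.5%) and 11 of 12 of Parse Mini.

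**Figure D1:**
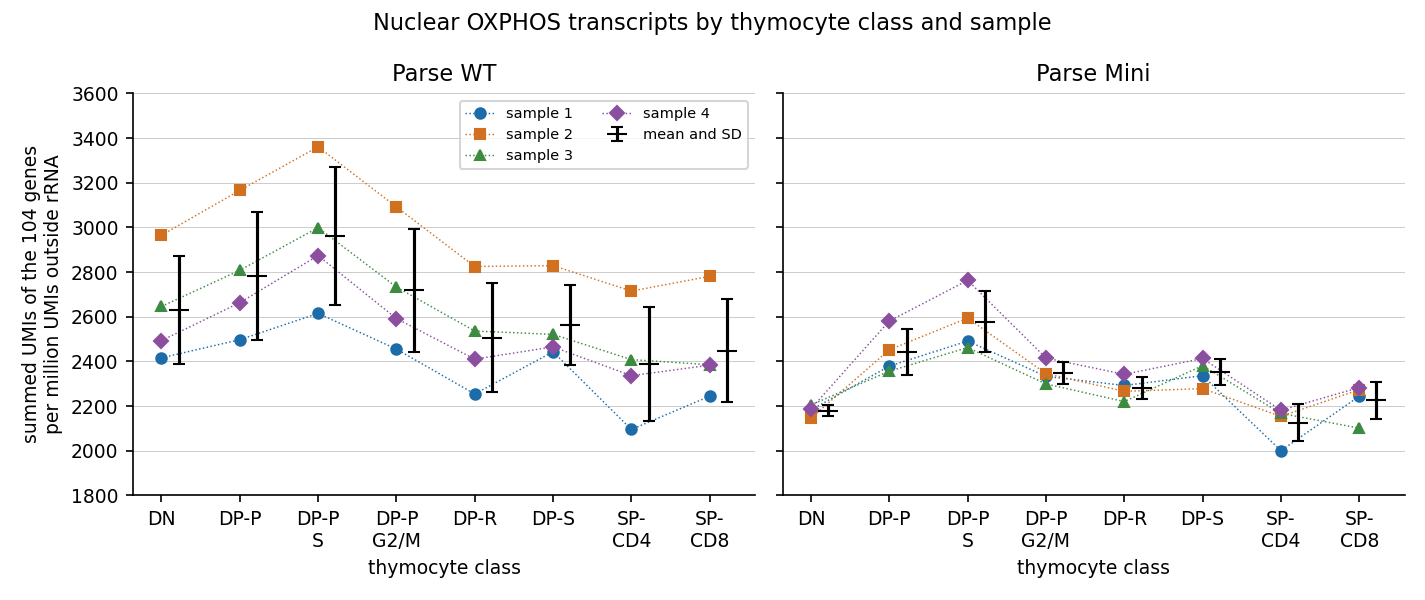
Summed CPM of the 104 nuclear oxidative phosphorylation genes, over UMIs outside ribosomal RNA (vertical axis, starting at 1800) in each thymocyte class (horizontal axis), in Parse WT and Parse Mini. Coloured symbols are samples 1 to 4, dotted lines join one sample, and black bars are mean and SD. DP-P cells and their S phase part lie above DP-R cells in every sample, SP-CD4 cells lie below, and DN cells lie above DP-R in Parse WT and below it in Parse Mini; with ribosomal protein UMIs as library sizes 53 of 92 members were called lower in DP-P cells of Parse WT, as were 67.5% of all genes.

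The summed level was higher in the clusters called S phase than in those called G2 and M phase. A further cluster of 2303 cells in Parse WT, led by Spc25, Rrm2, E2f8 and Nusap1, was given no class by the naming rule and entered neither phase nor the DP-P-like sums. Each DP-P-like cluster was given the phase whose markers were raised more, although both marker lists were raised in these cells, and the call did not fall on the same cells in the kits. In Parse WT, 1 cluster led by Gm41335, Bcat1 and Gfra1 (934 cells) and 1 led by E2f7, Esco2 and Neil3 (804 cells) were among those called G2 and M phase, while the Parse Mini clusters led by Gm41335, Bcat1 and Gfra1 (455 cells) and by E2f8, Rrm2 and Esco2 (684 cells) were called S phase. Phase values are therefore read within a kit and not compared between kits. S phase cells held 2615, 3361, 2999 and 2874 CPM in Parse WT and cells in G2 and M phase 2455, 3092, 2733 and 2592. S phase cells were 18.1% ± 1.46 above DP-R-like cells in Parse WT and 13% ± 4.1 in Parse Mini, and G2 and M phase cells 8.4% ± 0.918 and 3% ± 0.813. Within a sample, S phase cells were above G2 and M phase cells in 4 of 4 samples of each kit, by 8.97% ± 1.85 and 9.71% ± 3.59.

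The other stages lay closer to DP-R-like cells or below. SP-CD4-like cells were lower in 4 of 4 samples of each kit, by 4.78% ± 1.72 in Parse WT and 6.72% ± 4.39 in Parse Mini. DP-S-like cells were 2.54% ± 4.08 higher (3 of 4 samples) and 3.18% ± 2.89 higher (4 of 4), differences that do not exceed or barely exceed the spread. SP-CD8-like cells were lower by 2.28% ± 2.5 (4 of 4 samples) and 2.4% ± 2.34 (3 of 4), also within or close to the spread and turned by 1 gene, Ndufs4. In DN-like cells the kits went opposite ways: 4.97% ± 1.6 higher in Parse WT in 4 of 4 samples and 4.32% ± 2.53 lower in Parse Mini in 4 of 4. DN-like cells of Parse WT also held more of the proliferation marker Mki67 (median 640 CPM, 487 to 754) than those of Parse Mini (217 CPM, 136 to 304), and the part of this in the result was not tested.

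The sum was also taken without Ndufs4, the member with the most UMIs, which was lower in DP-P-like cells. Without it, DP-P-like cells were 17.1% ± 1.02 above DP-R-like cells in Parse WT and 13% ± 3.38 in Parse Mini, and S phase cells 25.6% ± 0.214 and 20.8% ± 4.2. Cells called G2 and M phase were 14% ± 1.31 and 7.86% ± 1.74 above. SP-CD8-like cells turned from below to above DP-R-like cells, by 1.66% ± 3.69 (3 of 4 samples) and 0.778% ± 4.43 (2 of 4), differences smaller than the spread. SP-CD4-like cells stayed lower in 4 of 4 samples of each kit (-2.63% ± 1.54 and -4.35% ± 4.07), and DP-S-like cells were 3.37% ± 3.91 and 4.07% ± 3.08 above, of which sample 1 of Parse WT alone gave 8.89% and the other 3 samples 0.165% to 3.34%. DN-like cells were then 10.8% ± 2.82 above in Parse WT (4 of 4 samples) and 0.21% ± 3.28 above in Parse Mini, where 1 sample was higher and 3 lower.

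Gene by gene, the cycling comparison was tested with edgeR's quasi-likelihood test on UMI counts summed per sample and class, with the sample as a block and Benjamini-Hochberg adjustment over all genes. Of the members, 92 passed the filter on low counts in Parse WT and 76 in Parse Mini. In DP-P-like against DP-R-like cells, 52 of 92 were called in Parse WT at an adjusted p under 0.05, where 61.9% of all tested genes were called. Of these 47 rose and 5 fell, while of all genes 31.9% rose and 30% fell. The median log2 fold change of the members was 0.26. In Parse Mini 23 of 76 were called (64.1% of all genes), 18 higher and 5 lower, with a median of 0.11, where 33.1% of all genes rose and 31% fell. The direction depends on what it is measured against: relative to the UMIs of cytosolic ribosomal protein genes, of which 83 of 84 tested rose in Parse WT, the median of the members was -0.3 beside -0.56 over all genes, and 5 members were called higher and 53 lower, where 11.8% of all genes were higher and 67.5% lower. Without the sample as a block 25 of 92 members were called, and without the cluster that came wholly from sample 1 there were 53. Shares of all genes called in these alternatives are not given.

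DP-P-like cells held more UMIs per cell (mean of sample medians 7791 in Parse WT against 2150 in DP-R-like cells). Likeness to simulated doublets also differed by class. In Parse WT the cluster medians of this score were 0.1 to 0.54 in DP-P-like, 0.0 to 0.46 in DP-R-like and 0.44 to 0.52 in DN-like clusters. Beyond leaving out the highest scores, the part of doublets in the result was not tested. In an alternative, cells under 1000 UMIs were left out and all others thinned to 1000 UMIs, which also changed which cells made up a class. In Parse WT 61 members could then be tested, of which 19 were called higher and 1 lower, where 26.7% of all genes were higher and 28.8% lower. In Parse Mini 25 could be tested, with 4 called higher and 3 lower (28% and 28.2% of all genes). Markers of some other cells moved with the class too. Of the 11 innate-like and gamma-delta T markers listed, 9 were in the gene list. They summed to 97.7 to 137 CPM in DP-P-like and 22.2 to 26.1 in DP-R-like cells of Parse WT. The 12 erythroid markers summed to 107 to 137 and 58.0 to 70.0. Hba-a1 stayed at or below 2.71 CPM, and the part of these cells in the result was not tested.

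Across the kits, which share no libraries, 76 members were tested in both. Of these, 46 were called in Parse WT and 23 in Parse Mini, and 21 were called in both with the same direction, which is 21 of the 46 and 21 of the 23. Over all tested genes 61.9% were called in Parse WT and 64.1% in Parse Mini. The share of all genes called in both kits is not given, so this overlap is not read as particular to the members. The 18 higher in both were Atp5a1, Atp5b, Atp5g2, Atp5g3, Atp5k, Cox4i1, Cox5a, Cox6a1, Cox6c, Cox7b, Cox8a, Ndufaf2, Ndufaf4, Ndufaf6, Ndufaf7, Ndufc2, Sdhaf3 and Uqcrq. The 3 lower in both were Ndufs4, Ndufv3 and Sdhaf2. Genes of these lists that are neither core subunits, isoforms, the most abundant members nor those of largest change, such as Atp5k and Uqcrq, were named after their values were seen.

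The complexes are described one by one, and differences between them were not tested. Beside their counts stand the 31.9% of all genes in Parse WT and 33.1% in Parse Mini that rose. In complex IV, which transfers electrons to oxygen, all 11 of its generally expressed subunits rose in Parse WT, with log2 fold changes of 0.25 to 1.15 and a median of 0.48, and in Parse Mini 6 of 11 rose, with a median of 0.39 and all 11 values above 0. Their summed level was 193, 318, 277 and 268 CPM in DP-R-like and 270, 455, 394 and 365 in DP-P-like cells of Parse WT, and 189, 209, 188 and 203 against 237, 267, 228 and 305 in Parse Mini. It was higher in DP-P-like cells of every sample, although sample 1 of Parse WT was low in both classes. Of the F1 subunits of ATP synthase, which form the catalytic head, 4 of 5 rose in Parse WT (median 0.5) and 2 of 4 in Parse Mini (median 0.21). Of its stalk and membrane subunits 10 of 13 rose in Parse WT (median 0.4) and 3 of 11 in Parse Mini (median 0.17). In complex III 5 of 8 rose and 1 fell in Parse WT, and 1 of 6 rose in Parse Mini.

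Complexes I and II follow. Of the 7 core subunits of complex I, which carry its flavin and iron-sulphur centres, 1 rose and 1 fell in Parse WT (median 0.06), and in Parse Mini 1 fell and none rose (median -0.02). Of its 30 accessory subunits 10 rose and 2 fell in Parse WT, and of the 24 tested in Parse Mini 1 rose and 2 fell. Its assembly factors, which build the complex without staying in it, gave 4 of 8 higher in Parse WT (median 0.54) and 4 of 5 in Parse Mini (median 0.72). Their summed level was 62.9, 71.2, 76.5 and 65.9 CPM in DP-R-like and 110, 107, 103 and 93.9 in DP-P-like cells of Parse WT, with no overlap. Of the 4 subunits of complex II, which is also an enzyme of the TCA cycle, only Sdhd rose in Parse WT (log2 fold change 0.45), and none was called in Parse Mini. Sdha stood at 71.9, 76.5, 73.5 and 73.1 CPM in DP-R-like and 75.8, 77.5, 66.6 and 73.6 in DP-P-like cells of Parse WT, and the ranges overlapped (adjusted p = 0.983, and 0.929 in Parse Mini).

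**Figure D2:**
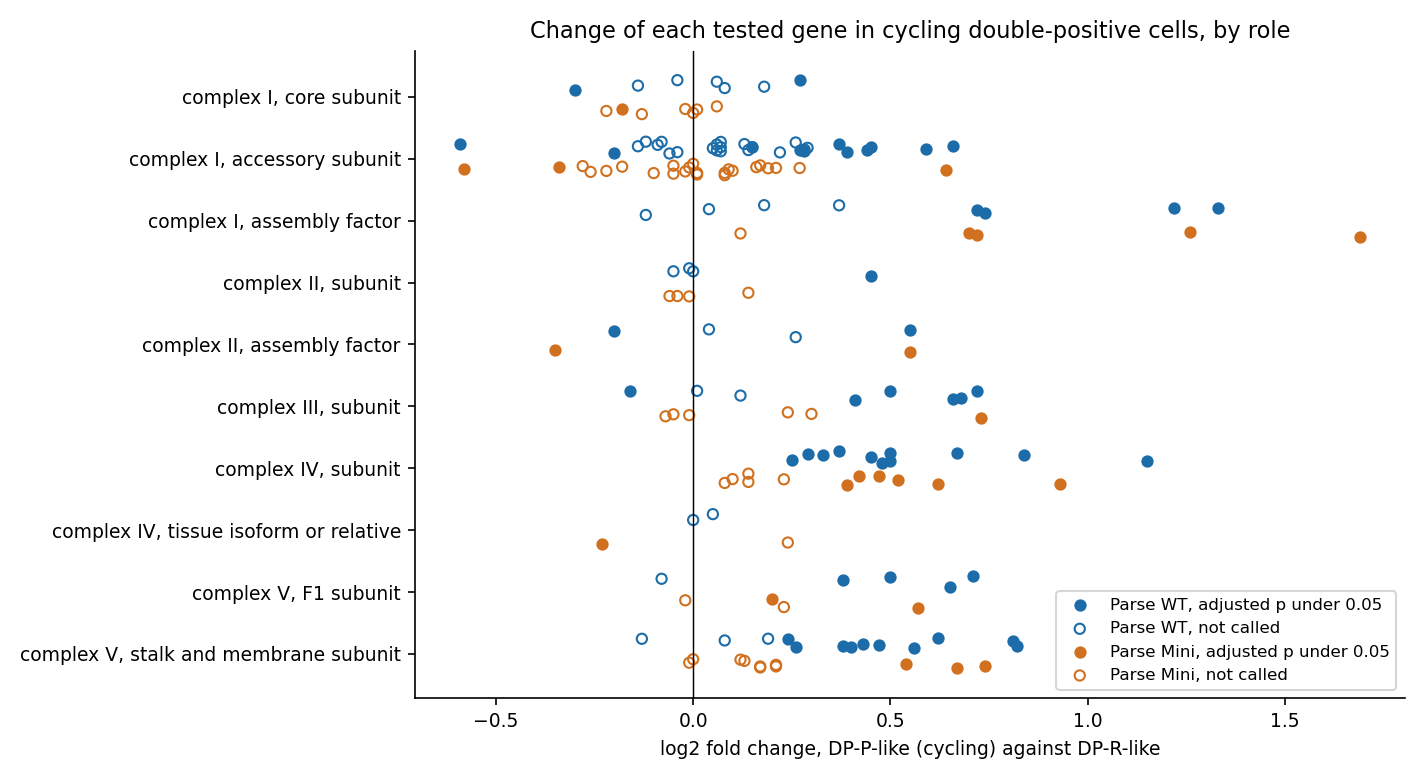
Log2 fold change of each tested gene in DP-P-like (cycling) against DP-R-like cells (horizontal axis), by role in the respiratory complexes (vertical axis). Each point is a gene, filled where its adjusted p was under 0.05; blue is Parse WT and orange Parse Mini. All 11 general complex IV subunits lie to the right of 0 in both kits, and Ndufs4 lies farthest left in both; with ribosomal protein UMIs as library sizes the median of the members was -0.3 in Parse WT and that of all genes -0.56.

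Single genes show the size of the change. Cox8a, a small structural subunit of complex IV, stood at 6.97, 10.9, 11.9 and 8.46 CPM in DP-R-like cells of Parse WT samples 1 to 4 and at 16.4, 20.9, 24.5 and 21.4 in DP-P-like cells, and at 7.96, 7.11, 6.25 and 8.17 against 13.7, 16.4, 14.1 and 14.8 in Parse Mini. The groups did not overlap in either kit. Its log2 fold change was 1.15 ± 0.12 (SE, adjusted p = 1.24e-10) in Parse WT and 0.93 ± 0.18 (adjusted p = 1.79e-05) in Parse Mini. Cox5a, a matrix-side subunit of complex IV, stood at 15.2, 25.0, 21.7 and 22.3 CPM against 33.4, 44.9, 38.0 and 36.9 in Parse WT, again without overlap (0.84 ± 0.09 on the log2 scale). In Parse Mini its log2 fold change was 0.52 ± 0.14 (adjusted p = 0.00105).

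Atp5b, the catalytic beta subunit of the F1 head, rose from 75.3, 119, 87.3 and 105 CPM to 125, 166, 147 and 164 in Parse WT, and from 72.4, 79.0, 71.0 and 67.1 to 101, 128, 106 and 114 in Parse Mini. Every DP-P-like sample was above every DP-R-like sample. The log2 fold changes were 0.65 and 0.57. Its partner Atp5a1 rose by less (0.38 and 0.2), and Atp5c1, the rotating gamma subunit, was not called in either kit (-0.08 and -0.02). The 3 genes Atp5g1, Atp5g2 and Atp5g3 encode one and the same c-ring protein with different leader peptides. Atp5g3 rose from 14.3, 21, 16 and 19.2 CPM to 25.7, 40.4, 29.5 and 29.6 in Parse WT (log2 fold change 0.82 ± 0.09), Atp5g2 by 0.81 ± 0.14 and Atp5g1 by 0.62 ± 0.15, and in Parse Mini Atp5g3 rose by 0.67 and Atp5g2 by 0.74, while Atp5g1 was not tested.

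Complex I assembly factors were among the members with the largest log2 fold changes, at low levels. Ndufaf4, an early complex I assembly factor, stood at 3.39, 3.06, 3.41 and 5.08 CPM in DP-R-like cells and 7.92, 9.07, 8.5 and 9.68 in DP-P-like cells of Parse WT (log2 fold change 1.22 ± 0.17, adjusted p = 1.21e-07). In Parse Mini it stood at 3.79, 2.37, 4.55 and 3.97 against 9.56, 12.3, 8.06 and 7.07 (1.26 ± 0.24). Both kits showed no overlap of the groups. Ndufaf6, another assembly factor, rose by 1.33 ± 0.17 and 1.69 ± 0.2, from 3.39, 3.45, 7.24 and 3.39 CPM to 8.77, 8.65, 13.4 and 10.9 in Parse WT. Here sample 3 was high in both classes. Ndufaf2 rose by 0.72 ± 0.09 and 0.7 ± 0.12, Ndufaf7 by 0.74 and 0.72, and Sdhaf3, which protects the iron-sulphur subunit of complex II during assembly, by 0.55 in both kits.

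Ndufs4 went the other way. Its level was 303, 311, 303 and 264 CPM in DP-R-like cells and 192, 213, 191 and 180 in DP-P-like cells of Parse WT, and 316, 328, 318 and 293 against 232, 214, 224 and 206 in Parse Mini. The groups lay far apart in both kits. The log2 fold change was -0.59 ± 0.05 (adjusted p = 7.03e-13) in Parse WT and -0.58 ± 0.05 (adjusted p = 2.29e-16) in Parse Mini. Ndufv3, another complex I subunit, fell by 0.2 ± 0.08 and 0.34 ± 0.09 on the log2 scale, and Sdhaf2, which puts the flavin into Sdha, by 0.2 and 0.35. Ndufs3 (-0.3 ± 0.08) and Uqcrc2 (-0.16 ± 0.05) fell in Parse WT and were not called in Parse Mini (-0.22 and -0.07).

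Of other catalytic and core subunits, Ndufs8 (0.08 and 0.00), Ndufv1 (0.18 and 0.06), Ndufv2 (0.06 and 0.01), Sdhb (-0.05 and -0.04), Sdhc (-0.01 and -0.06) and Uqcrc1 (0.01 and -0.05) were not called in either kit. Ndufs7 was called in Parse WT only (0.27), and Ndufs1 in Parse Mini only (-0.18, where Parse WT gave -0.14). For Uqcrb and the Rieske iron-sulphur protein Uqcrfs1 the log2 fold changes were 0.41 and 0.5 in Parse WT, both called, and 0.3 and 0.24 in Parse Mini, neither called. Cox4i1 rose by 0.48 and 0.39 and Cox6c by 0.5 and 0.47 in both kits, although relative to ribosomal protein UMIs Cox4i1 turned to -0.08 and -0.17, and Cox5a in Parse Mini to -0.03 and Sdhaf3 in Parse WT to -0.01. In contrast, Cox5b (0.29), Cox7c (0.37) and Ndufa4 (0.45), now counted to complex IV, rose in Parse WT and were not called in Parse Mini (0.08, 0.1 and 0.14).

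Within DP-P-like cells the phases were compared too. In S phase against G2 and M phase cells 7 of 92 members were called in Parse WT (24.9% of all genes tested, 12.5% higher and 12.4% lower), all 7 higher in S phase, with a median of 0.06 over the members. In Parse Mini 12 of 81 were called (41% of all genes, 19.5% higher and 21.4% lower), 10 higher and 2 lower. Called higher in S phase in each kit's own split were Atp5b (0.19 and 0.39), Atp5g1 (0.54 and 0.89), Atp5g2 (0.43 and 0.8), Ndufaf2 (0.56 and 0.48) and Ndufaf4 (0.79 and 0.68). Ndufaf4 stood at 10.9, 13.5, 14.5 and 13.9 CPM in S phase and 6.88, 7.38, 6.17 and 8.26 in G2 and M phase cells of Parse WT, with no overlap.

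Each phase was also set against DP-R-like cells. S phase cells gave 47 of 92 members called in Parse WT, 44 higher and 3 lower, where 60.7% of all genes were called, 31.6% higher and 29.1% lower. In Parse Mini 29 of 81 were called, 23 higher and 6 lower (of all genes 66.4%, 33.1% higher and 33.3% lower). Cells in G2 and M phase gave 48 of 92, 45 higher and 3 lower (of all genes 58.5%, 30.4% higher and 28.1% lower), and in Parse Mini 19 of 81, 15 higher and 4 lower (54.7%, 28.4% and 26.3%). The median log2 fold changes were 0.28 and 0.15 in S phase and 0.27 and 0.05 in G2 and M phase.

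In DN-like against DP-R-like cells, 31 of 92 members were called in Parse WT (59.5% of all genes, 34.1% higher and 25.4% lower), 23 higher and 8 lower, with a median of 0.12 where all genes had 0.06. In Parse Mini 15 of 76 were called (49.6% of all genes, 26.8% higher and 22.8% lower), 5 higher and 10 lower, with a median of -0.1. The calls were mostly higher in Parse WT and mostly lower in Parse Mini. Relative to ribosomal protein UMIs, 2 members were higher and 74 lower in Parse WT, where 12.7% of all genes were higher and 68.7% lower and the medians were -0.64 for the members and -0.7 for all genes. Without sample 4 of Parse Mini 9 members were called there. In both kits fewer members were called without the sample as a block, and after thinning, where fewer could be tested. This held for the DP-S-like, SP-CD4-like and SP-CD8-like comparisons below as well.

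Of the 76 members tested in both kits in the DN comparison, 45 had the same sign, 30 were called in Parse WT and 15 in Parse Mini, and 10 were called in both, with the same direction. Over all tested genes 59.5% and 49.6% were called. The shares of all genes with the same sign or called in both kits are not given. Higher in both kits were Ndufaf6 (log2 fold change 1.58 and 1.71), Ndufaf4 (1.52 and 1.35), Cox6b2 (0.92 and 1.3), Ndufaf2 (0.72 and 0.57) and Atp5b, and lower in both were Ndufs4 (-0.71 and -0.68), Ndufv3 (-0.66 and -0.69), Ndufs3 (-0.56 and -0.51), Sdhaf2 (-0.51 and -0.78) and Ndufs1 (-0.31 and -0.33). Of the 11 complex IV subunits 5 rose in Parse WT and none was called in Parse Mini. Ndufs4 stood at 177, 214, 177 and 169 CPM in DN-like cells of Parse WT, below every DP-R-like sample. Relative to ribosomal protein UMIs the sign of Ndufaf2 (-0.05 and -0.13) and of Atp5b (-0.21 and -0.42) turned.

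Cox6b2 was the isoform gene called higher in DN-like cells. It encodes an isoform of the complex IV subunit Cox6b that is best known from testis and is tested beside the general form, Cox6b1. Cox6b2 stood at 24.6, 15.5, 17.8 and 22.9 CPM in DN-like cells of Parse WT and 8.09, 8.11, 10.6 and 12.3 in DP-R-like cells, and at 21.6, 21, 18.8 and 25.4 against 7.58, 5.0, 9.94 and 9.49 in Parse Mini. The groups did not overlap, and the adjusted p was 2.78e-07 and 8.31e-05. It was lower than in DP-R-like cells in the later classes of Parse WT: in SP-CD8-like cells it stood at 4.48, 2.47, 6.65 and 4.81 CPM, from 18 UMIs (log2 fold change -1.13, adjusted p = 0.00166), in SP-CD4-like cells its change was -0.61 (adjusted p = 0.00438) and in DP-S-like cells -0.39 (adjusted p = 0.042). In Parse Mini the change was called in DP-S-like cells (-1.01) and not in SP-CD4-like (-0.8) or SP-CD8-like cells (-0.57). Cox6b1 was not called in DN-like cells (-0.03 and -0.07).

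The other tissue isoforms were scarce. Over all cells of a kit, Cox4i2 gave 103 UMIs in Parse WT and 26 in Parse Mini, Cox7a1 131 and 25, Cox7b2 121 and 10, Cox6a2 103 and 9, Cox8b 5 and 1, Cox8c 1 and 0, Cox6c2 6 and 0, and Ndufa4l2 13 and 0. Of the gene copies, Ndufa11b gave 24 and 3 UMIs and Ndufs6b 3 and 0, and no UMI was seen for Ndufb4c or Ndufb11b in either kit. None of these 12 genes passed the filter on low counts. Their general partners Cox4i1, Cox7a2, Cox7b, Cox6a1, Cox8a and Ndufa4 were all tested in both kits.

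**Figure D3:**
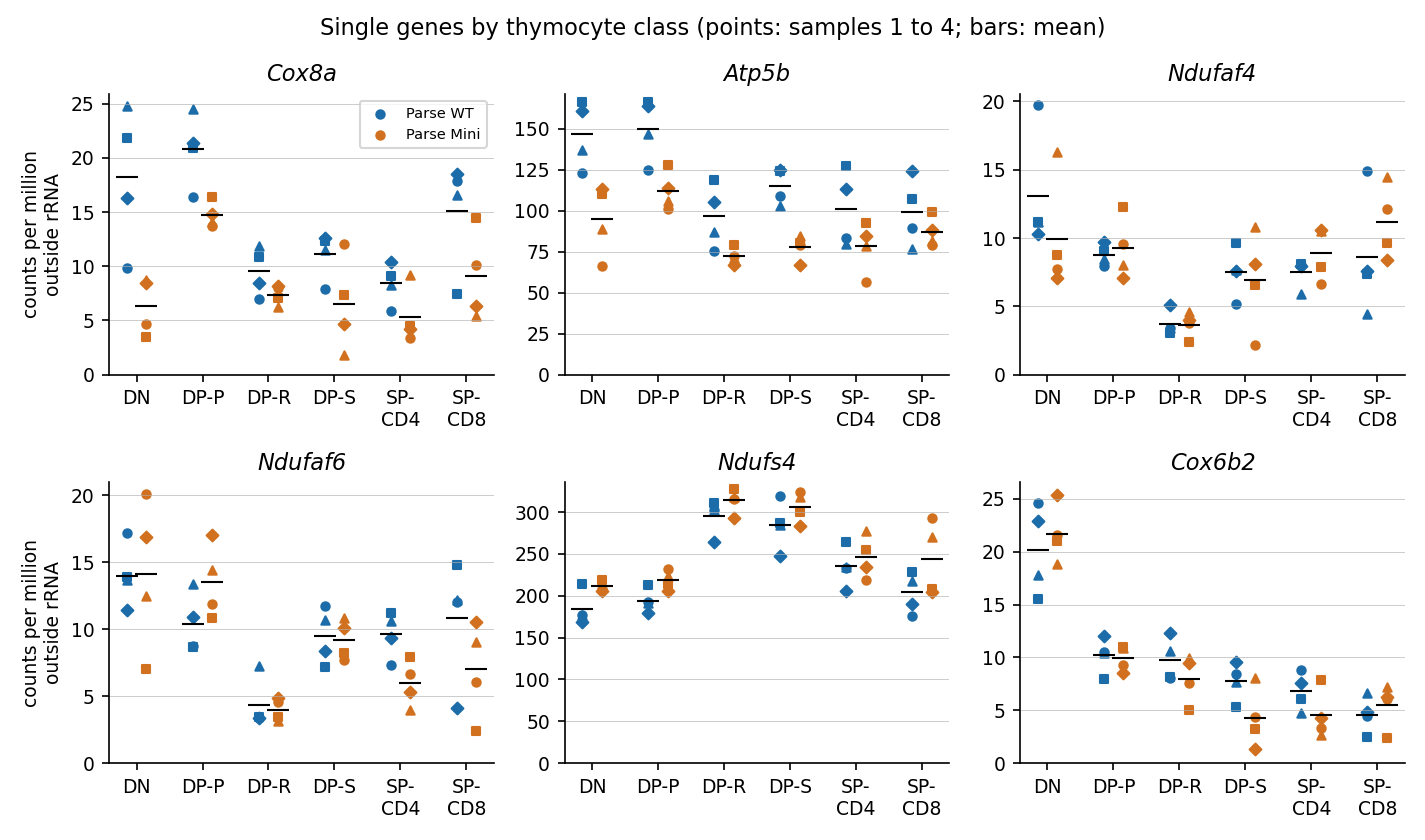
CPM of 6 genes, over UMIs outside ribosomal RNA (vertical axes, each starting at 0) in 6 thymocyte classes (horizontal axes). Points are samples 1 to 4 (circle, square, triangle, diamond) of Parse WT (blue) and Parse Mini (orange), and bars are means. Cox8a and Atp5b are high in DP-P, Ndufaf4 and Ndufaf6 have their lowest means in DP-R, Ndufs4 is highest in DP-R and DP-S, and Cox6b2 is highest in DN cells; with ribosomal protein UMIs as library sizes the change of Atp5b in DN cells turns lower.

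In DP-S-like cells few members were called: 11 of 92 in Parse WT (30.1% of all genes, 16.3% higher and 13.8% lower), 8 higher and 3 lower, and 6 of 76 in Parse Mini (27.9%, 14.4% and 13.5%), 5 higher and 1 lower. The medians were -0.01 and 0.03. Ndufaf6 (1.06 ± 0.21 and 1.19 ± 0.3), Ndufaf4 (0.97 ± 0.21 and 0.94 ± 0.36), Ndufaf2 (0.58 and 0.55) and Sdhaf3 (0.57 and 0.6), all assembly factors, rose in both kits. Atp5d (0.54), Atp5l (-0.33) and Atp5h (-0.28) were called in Parse WT only. No complex III subunit and none of the 11 complex IV subunits was called in either kit. Without sample 4, 6 members were called in Parse WT. In Parse Mini 3 were called without sample 1, 2 or 4 and 4 without sample 3.

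In SP-CD4-like cells 12 of 92 members were called in Parse WT (37.3% of all genes, 21.1% higher and 16.2% lower), 6 higher and 6 lower, and 11 of 76 in Parse Mini (38.5%, 20.9% and 17.5%), 3 higher and 8 lower. Ndufaf4 (0.93 and 1.26) and Sdhaf3 (0.6 and 0.74) rose and Ndufs4 (-0.35 and -0.37) and Ndufv3 (-0.35 and -0.57) fell in both. In SP-CD8-like cells 12 of 92 were called (37.5% of all genes, 21.8% higher and 15.6% lower), 6 in each direction, and 8 of 76 in Parse Mini (37.9%, 20.6% and 17.3%), 4 in each direction. Ndufaf4 (1.04 and 1.55), Atp5g2 (0.71 and 0.87) and Sdhaf3 rose and Ndufs4 (-0.53 and -0.42) fell in both. Relative to ribosomal protein UMIs, Sdhaf3 turned to -0.07 in SP-CD8-like cells of Parse WT, and 66 members were lower in SP-CD4-like and 60 in SP-CD8-like cells there, as were 52.2% and 58% of all genes. Beside these, Parse WT called Ndufaf6 higher in SP-CD4-like (1.19) and SP-CD8-like cells (1.17), where Parse Mini gave 0.54 and 0.79 without a call, and Ndufaf7 higher in SP-CD4-like cells (0.58). It also called Ndufb4 (-0.42) and Atp5h (-0.31) lower in SP-CD4-like cells and Ndufb3 (-0.64), Cox6b1 (-0.51) and Atp5h (-0.42) lower and Cox8a (0.7) higher in SP-CD8-like cells. Single samples moved these counts. Without sample 3, 6 members were called in SP-CD4-like cells of Parse WT, and without sample 4 or 1, 6 or 7 in SP-CD8-like cells. In Parse Mini the counts were 7 and 4 without sample 1, and 6 and 3 without sample 4. All 5 comparisons share the DP-R-like cells, so a gene that stands apart in that class appears in each of them.

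Other genes of the pathway were read from lists of neighbouring functions. These genes, like the members, were left out of the clustering. Their values describe the classes, which rest on other genes of the same cells. In DP-P-like against DP-R-like cells, all 7 tested mitochondrially encoded mRNAs were higher in both kits (median log2 fold change 0.62 and 1.1). Cytosolic ribosomal protein genes were higher in 83 of 84 and 75 of 81 (median 0.54 and 0.55), above the members' medians of 0.26 and 0.11. Mitochondrial ribosomal protein genes were closer to the members, with 32 of 78 higher and 5 lower in Parse WT (median 0.22) and 7 of 52 higher and 3 lower in Parse Mini (median 0.03).

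For the steps around the respiratory chain the counts stand beside the 31.9% and 33.1% of all genes that were higher, and no difference between lists was tested. Mitochondrial import genes were higher in 9 of 18 and 4 of 12 with none lower (median 0.3 and 0.2). Electron carriers and complex IV assembly factors were higher in 9 of 21 and 5 of 16 and lower in 2 and 1 (median 0.2 and 0.14). Of the TCA cycle genes 5 of 13 were higher in each kit, and 1 was lower in Parse Mini (median 0.07 and 0.01). Genes of pyruvate entry were mixed, with 4 higher and 5 lower of 12 in Parse WT and 2 higher and 5 lower of 11 in Parse Mini. Glycolytic enzymes were higher in 9 of 14 and 5 of 12 and lower in 3 and 2 (median 0.36 and 0.17). Core proteasome genes were higher in 7 of 14 and 3 of 13, with 1 lower in Parse Mini, and genes of mitochondrial DNA expression were higher in 4 of 10 and 2 of 7 and lower in 2 and 1.

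Of 12 regulators of mitochondrial genes, 11 were tested. In DP-P-like cells the growth regulator Myc was higher by 2.2 and 2.3 on the log2 scale, the coactivator Pprc1 by 1.32 and 1.58, the mitochondrial DNA factor Tfam by 0.44 and 0.45 and the transcription factor Nrf1 by 0.16 and 0.14. The nuclear receptor Esrra was lower (-0.6 and -0.62), as was Hif1a (-0.28 and -0.18). Mtor (0.08 and 0.25) and Ppargc1b (0.17 and 0.25) were called in Parse Mini only, and Gabpa, Gabpb1 and Yy1 were not called in either kit. Ppargc1a was not tested. In DN-like cells Myc was higher by 3.53 and 3.21 and Pprc1 by 1.7 and 1.91, while Nrf1 was lower (-0.24 and -0.34).

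In the 16 other samples, 81396 cells were grouped by markers and the summed level of the 104 genes was taken per sample and class, for samples with at least 20 cells of the class. The level over all cells of a sample had a median of 1878 CPM (1477 to 2052). Cycling erythroid-like cells, the dividing precursors of red cells, held the most, with a median of 2304 (1804 to 2954, 15 samples), above B-like cells of the same sample in 15 of 15 by a median ratio of 1.29 (1.24 to 1.55). Erythroid-like cells that did not cycle were lowest, at 1040 (759 to 1355, 5 samples). They were below B-like cells in 5 of 5 samples, and cycling cells were 2.32 times (2.11 to 3.08) higher than they were in those 5. These latter cells were few, 156 in those 5 samples and 253 over all, at a median depth of 2080 UMIs. Other lists were lower in them too: the median summed level of cytosolic ribosomal protein genes was 2482 CPM against 5952 in cycling cells, of mitochondrial ribosomal protein genes 426 against 1082, and of mitochondrially encoded mRNAs 1106 against 2787.

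Lymphocytes lay close together. The medians were 1806 in B-like cells (1457 to 2415, 16 samples), 1848 in NK-like, 1796 in SP-CD4-like, 1794 in SP-CD8-like and 1719 in Treg-like cells, and their ranges overlapped nearly whole. Innate-like or gamma-delta T-like cells stood at 2010 (9 samples) and were above B-like cells in 8 of 9, and the DP-R-like cells (2216 in samples with at least 20) stood at 2105 (1559 to 2657, 12 samples) at a median depth of 1076 UMIs. With ribosomal RNA in the denominator the medians were 1179 CPM in these cells and 1450 in B-like cells, so their order turned. The paper calls these samples non-thymic, and where their DP-R-like cells came from was not tested. Several myeloid classes and plasma cells were lower than B-like cells of the same sample in most samples: macrophage-like cells (1679) lay below B-like cells in 16 of 16 samples with a median ratio of 0.925, neutrophil-like cells (1505, 1292 to 1916) in 15 of 16 with 0.83, conventional dendritic-like cells (1600) in 14 of 16 and plasma cell-like cells (1620) in 13 of 14. Monocyte-like cells (1725) were less even, above B-like cells in 6 of 16 samples with a median ratio of 0.935, and plasmacytoid dendritic-like cells (1840) were above them in 5 of 13 with a median ratio of 0.989. In neutrophil-like cells cycling made no clear difference, with cycling cells higher in 6 of 11 samples.

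**Figure D4:**
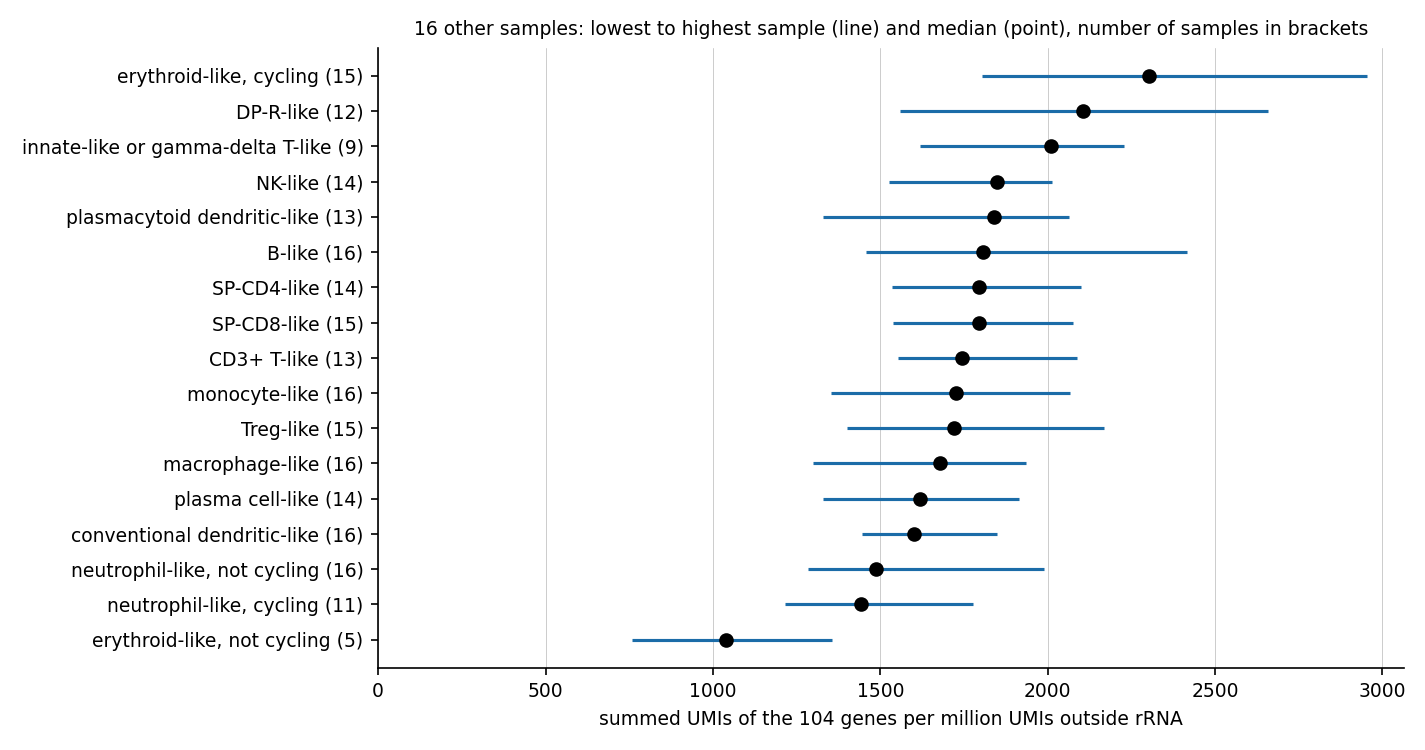
Summed CPM of the 104 genes, over UMIs outside ribosomal RNA (horizontal axis, starting at 0) by cell class (vertical axis) in the 16 samples whose groups the labels do not give. Lines run from the lowest to the highest sample, points are medians, and the number of samples stands in brackets. Cycling erythroid-like cells have the highest median (2304) and erythroid-like cells that do not cycle the lowest (1040), while most other ranges overlap.

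Some members were uneven over these cell types. Cox6b2 again stood out, with a median of 50.7 CPM (21.5 to 81.2) in cycling erythroid-like cells, which held 1033 of its 1294 UMIs in these samples, beside 0.567 in B-like cells, 1.95 in monocyte-like cells and 2.25 in neutrophil-like cells. In plasma cell-like cells no UMI was seen. Cox6a2, the heart and muscle form of Cox6a, had 52 of its 72 UMIs in plasmacytoid dendritic-like cells (median 12.0 CPM, 0 to 55.7). Macrophage-like cells held 8 of its UMIs and the T cell classes none. Ndufs4 was highest in DP-R-like cells (148 CPM) and Treg-like cells (146), lay at 105 in B-like cells, and stood at 62.1 in cycling erythroid-like cells. Ndufaf6 had a median of 3.77 CPM in DP-R-like cells, from 19 UMIs, beside 8.83 in cycling erythroid-like, 16.9 in B-like and 19.9 in conventional dendritic-like cells.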

How the data were processed

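Gene-by-cell tables of UMI counts were deposited by the authors for Parse WT (9 sublibraries) and Parse Mini (2 sublibraries), made with split-pipe by the study's methods. Neither the split-pipe version nor the annotation release is given in the sources used here. The submitters' processing notes name mm10 and Cell Ranger. The counts were not normalized, and 8 columns of the cell tables were not used. The 10x libraries were not analysed here. Each cell's tissue sample comes from the cell table.

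Quality limits were 500 to 25000 UMIs per cell and a mitochondrial share of 15% or less, which kept 39369 of 41838 thymic Parse WT cells, 19273 of 20085 Parse Mini cells and 81396 of 86786 cells of the 16 other samples. Depth was 17.4 to 66.2, 17.5 to 19.0 and 4.0 to 42.4 M UMIs outside ribosomal RNA per sample. No doublets were called. An alternative left out the 5% of cells per sample with the highest simulated-doublet score. The paper called doublets computationally in both Parse libraries and removed them, at shares well above 5%. Barcode combinations that occur in several sublibraries were kept as separate cells.

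Clusters used 2000 variable genes, 30 components and 20 neighbours (numpy 2.4.6, scikit-learn 1.9.0), with leidenalg 0.10.2 at resolution 3.0. They were made without the 104 genes, the lists of neighbouring functions, and mitochondrial and ribosomal RNA genes. Genes that varied between wells of a sample were left out too. Clusters were named from marker lists, with at least 3 markers raised 1.25-fold with 10 UMIs or more each. A share of 0.5 of the list had to be raised, with a mean log2 fold of 0.8 over its markers. This mean was set lower for the reference classes, at 0.4 for DP-R-like thymic clusters and 0.3 for B-like clusters of the other Parse WT samples. UMIs were summed per sample and class (at least 20 cells) and tested with edgeR 4.0.16 in R 4.3.3 (TMM, filterByExpr, quasi-likelihood test, Benjamini-Hochberg over all tested genes, adjusted p under 0.05), with the 6 thymocyte classes in one fit, ribosomal RNA genes left out and the tissue sample as a block, since every class came from the same samples. Scripts were tested on simulated data. Levels and percent differences are given as mean ± SD over samples. Log2 fold changes are given ± SE. Intervals rest on the spread between the samples of a kit, in which lobes of one mouse are not separate animals.

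Members and lists were chosen with earlier results of these data known. Named members were core subunits, isoform pairs, the 10 most abundant, the 5 of largest change per direction and comparison called in Parse WT with the same sign in Parse Mini, and members without UMIs; one of these genes is not reported here. Alternatives were DESeq2 1.42.0, RLE size factors, no low-count filter, no block, ribosomal RNA kept, ribosomal protein library sizes, thinning to 1000 UMIs, no upper UMI limit, coarser clusters (resolution 1.5) and leaving out each sample. Thinning left out cells with fewer than 1000 UMIs. Motifs were searched in RefSeq promoters (GRCm38.p6).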

Additional observations from a re-analysis of the deposited data

Results flagged for a closer look

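In DN-like cells the summed level of the 104 genes lay above that of DP-R-like cells in every Parse WT sample (mean 4.97%) and below it in every Parse Mini sample (mean -4.32%). It was the only one of 85 comparisons examined for this in which every sample of one kit went one way and every sample of the other kit the opposite way, and the difference between the kits was not tested. Without Ndufs4 the means were 10.8% and 0.21%. The 14 summed G2 and M phase markers of the DN-like class had a median of 2430 CPM in Parse WT (1710 to 2640) and 864 in Parse Mini (659 to 1120), and the part of this in the result was not tested.

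In 14 of 208 groups of 4 samples examined, 1 sample stood far from the other 3; chance alone gives about 1 in 20. In Parse WT these were Ndufs4 in DP-R-like cells (264 CPM in the sample apart), Ndufaf4 in DN-like cells (19.7) and SP-CD4-like cells (5.9), Ndufaf6 in DP-R-like cells (7.24), Cox5a in SP-CD8-like cells (12.0) and Ndufc2 in DN-like cells (13.5). In Parse Mini they were the summed level of SP-CD4-like cells (2000 CPM), Ndufv3 in DP-P-like (29.2 CPM) and SP-CD8-like cells (55.6), Ndufs3 in SP-CD8-like cells (10.5), Sdhaf3 in DN-like (5.25) and DP-P-like cells (19.5), Cox5a in DP-P-like cells (27.2) and Atp5g2 in DP-P-like cells (13.4).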

How the results depend on the processing

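Counts of members called are given for DP-P-like, DP-S-like, SP-CD4-like, SP-CD8-like and DN-like cells, each against DP-R-like cells, in that order. The main counts were 52, 11, 12, 12 and 31 in Parse WT and 23, 6, 11, 8 and 15 in Parse Mini. With no replicate block they were 25, 5, 5, 5 and 17 in Parse WT and 22, 3, 9, 7 and 12 in Parse Mini. The pairing comes from classes of the same tissue sample. Shares of all genes called without the block are not given, so the drop is not read as particular to the members. With cells under 1000 UMIs left out and the rest thinned to 1000 UMIs, the counts were 20, 2, 2, 2 and 7 of 61 tested, and 7, 4, 3, 2 and 4 of 25. Fewer genes passed the filter. In the same order, 26.7%, 15%, 18.2%, 16.2% and 22.3% of all genes were then higher in Parse WT, and 28.8%, 14%, 15.3%, 12.9% and 17.7% lower. In Parse Mini 28%, 12.2%, 16.7%, 15.1% and 15.8% were higher, and 28.2%, 13%, 15.6%, 13.7% and 13.3% lower. With ribosomal protein library sizes the counts of members were 58, 18, 68, 60 and 76, and 51, 4, 40, 46 and 63, most of them lower. Of all genes 67.5%, 25%, 52.2%, 58% and 68.7% were lower in Parse WT and 68%, 20%, 46.5%, 57.3% and 66.6% in Parse Mini. The balance of higher and lower calls turned for DP-P-like and DP-S-like cells in both kits and for DN-like cells in Parse WT. With no low-count filter 7 were called in DP-S-like cells of Parse WT, and with DESeq2 3 in those of Parse Mini. Leaving out 1 sample gave 39 to 55, 6 to 11, 6 to 12, 6 to 12 and 21 to 36 in Parse WT, and 19 to 24, 3 to 4, 6 to 13, 3 to 6 and 9 to 14 in Parse Mini. Leaving out clusters held by 1 sample, an alternative chosen after seeing the data as was the split by phase, gave 53, 10, 13, 11 and 30 in Parse WT.

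Single genes were followed under these alternatives only where they were called in the main fit, so a gained call was not counted. Of these values, 1131 kept their direction and call, 167 lost the call and 16 changed sign. With ribosomal protein library sizes the log2 fold change in DN-like cells of Parse WT became -0.05 for Ndufaf2, -0.27 for Sdhaf3, -0.07 for Cox5a, -0.48 for Cox4i1, -0.21 for Atp5b, -0.31 for Atp5g3, -0.1 for Uqcrq and -0.35 for Ndufc2. In DP-P-like cells it became -0.01 for Sdhaf3 and -0.08 for Cox4i1 in Parse WT, and -0.03 for Cox5a and -0.17 for Cox4i1 in Parse Mini. It became -0.07 for Sdhaf3 in SP-CD8-like cells of Parse WT, and -0.13 for Ndufaf2 and -0.42 for Atp5b in DN-like cells of Parse Mini, where thinning gave -0.19 for Atp5b. The level of erythroid-like cells moved from 2290 to 1561 CPM with all UMIs as the denominator, ribosomal RNA included, which put B-like cells at 1450, and DP-R-like cells of the 16 other samples moved from 2105 to 1179.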

Other observations

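Among the other cells of the Parse WT thymic samples, neutrophil-like cells held the highest summed level of the 104 genes, at 3409 to 4160 CPM in the 3 samples with at least 20 cells (median 3442). In sample 1, with 19 such cells, the level was 2157, which is 4.28% below its DP-R-like cells. Summed cytosolic ribosomal protein genes stood at 11780 to 17100 CPM in the other 3 samples and 4285 in sample 1. In the 16 other samples the neutrophil-like level was among the lowest (median 1505). Macrophage-like cells of the thymic samples had a median of 2683, B-like cells 2287 and Treg-like cells 2481. Levels of the same class in the thymic and the other samples were not tested against each other.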
